A study of Mus musculus with 4 samples.

Results

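The genes described here carry a cell through the G2 phase and mitosis: mitotic cyclins and kinases, the spindle checkpoint, kinetochore proteins, kinesins, spindle and cytokinesis factors, condensin subunits and the transcription factor Foxm1. The list holds 50 genes, chosen by function. Of these, 49 were measured by a probe set that names the gene alone, out of 18193 genes on the array, and each was represented by its probe set of highest mean over the 4 arrays. The remaining gene, Ccnb1 (cyclin B1), was not analysed here.

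Messenger RNA was measured on 4 one-colour Affymetrix arrays from hair follicle stem cells, which renew the follicle in each hair cycle, sorted from mouse skin at postnatal day 4. 2 arrays carried RNA of miR-205 knockout (KO) mice and 2 of wild-type (WT) mice, both on a C57BL/6 background. Array titles call the samples of a group biological replicates 1 and 2, written here as KO 1, KO 2, WT 1 and WT 2; "within a number" below means KO 1 against WT 1 or KO 2 against WT 2. Labels do not describe the deleted allele, and nothing in them says that the replicates came from separate animals or pools, so p-values measure only the spread between these samples. The treatment text given for all 4 samples concerns mice with doxycycline-inducible miR-203 under the keratin 14 promoter and names no miR-205 allele, so groups were taken from the titles.

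Entry into mitosis is driven by CDK1 bound to cyclins A and B, with the kinases PLK1 and Aurora A. Chromosomes attach to spindle microtubules through kinetochores, and the spindle checkpoint holds back the anaphase-promoting complex until all are attached. Many genes of this programme are transcribed together late in the cell cycle. Their promoters often hold a CHR element, which binds the MuvB core shared by the repressive DREAM complex and the activating B-MYB and FOXM1 complexes, near CCAAT boxes bound by NF-Y. In neonatal skin follicles grow rapidly, and stem and progenitor cells divide.

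The promoter stretches of 7 members are printed here with any matches to these elements marked. They are the 6 members of smallest unadjusted p that have a RefSeq promoter window here, and Nusap1. Among members whose window holds no CHR match, Nusap1 had the largest positive difference. Each stretch runs from 80 bases before to 40 bases after the annotated start (RefSeq, GRCm38.p6), 5′ to 3′ on the gene's strand. Capitals mark matches to the CHR (TTTGAA) or the CCAAT box (CCAAT) on either strand, which do not overlap each other as letters in these stretches.
Plk1, chr7:122159355-122159474, plus strand: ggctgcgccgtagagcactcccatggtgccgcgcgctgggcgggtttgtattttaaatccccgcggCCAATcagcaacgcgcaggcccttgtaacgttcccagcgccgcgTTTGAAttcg
Ndc80, chr17:71526818-71526937, minus strand: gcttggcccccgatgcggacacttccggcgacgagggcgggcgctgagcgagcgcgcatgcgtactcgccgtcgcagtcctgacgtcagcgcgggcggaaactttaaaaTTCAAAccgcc
Ube2c, chr2:164769849-164769968, plus strand: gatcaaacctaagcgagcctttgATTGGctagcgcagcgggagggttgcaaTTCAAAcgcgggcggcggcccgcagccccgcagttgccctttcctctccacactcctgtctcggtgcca
Prc1, chr7:80294371-80294490, plus strand: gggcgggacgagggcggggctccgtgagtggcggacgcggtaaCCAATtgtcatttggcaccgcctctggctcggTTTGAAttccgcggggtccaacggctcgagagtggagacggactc
Ccnb2, chr9:70421515-70421634, minus strand: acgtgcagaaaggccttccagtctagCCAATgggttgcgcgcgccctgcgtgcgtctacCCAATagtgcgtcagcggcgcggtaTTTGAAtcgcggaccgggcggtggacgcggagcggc
Spc25, chr2:69206174-69206293, minus strand: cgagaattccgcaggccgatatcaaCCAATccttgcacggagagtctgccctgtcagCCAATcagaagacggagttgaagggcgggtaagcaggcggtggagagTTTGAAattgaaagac
Nusap1, chr2:119618218-119618337, plus strand: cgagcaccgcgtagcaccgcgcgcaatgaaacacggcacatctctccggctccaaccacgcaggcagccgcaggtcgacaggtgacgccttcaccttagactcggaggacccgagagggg
With the annotated start as base 1, the CHR match began at base 31 in Plk1, 30 in Ndc80, 5 in Ccnb2 and 25 in Spc25. In Ube2c it began 29 bases and in Prc1 5 bases before the start (given as -29 and -5). CCAAT matches lay upstream of it, at -14 in Plk1, -57 in Ube2c, -37 in Prc1, -54 and -21 in Ccnb2 and -55 and -23 in Spc25. Ndc80 and Nusap1 had no CCAAT match in their windows. Further matches of Ube2c and Ccnb2 lay upstream of the printed stretch.

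Over the whole list, a window from 250 bases before to 50 bases after the start was found for 41 of the 49 members. A CHR match lay in the windows of 31 of the 41 (75.6%), against 20.2% of all 27025 genes with a window. Within 50 bases of the start it was present in 28 members (68.3%) and in 5.72% of all genes. CCAAT matches were present in 32 members (78.0%), against 41.1% of all genes. A CHR match near the start together with a CCAAT match anywhere in the window occurred in 25 members (61.0%) and 2.79% of all genes. In the bin of 50 bases after the start, 40.9% of the 44 member windows began a CHR match, against 2.25% of all windows. CCAAT matches were most frequent just upstream, beginning in the last 50 bases before the start in 52.3% of member windows and 9.03% of all windows. A match describes the letters only and shows neither binding nor use of the site. The list was chosen by function, so these shares are a description of what its members have in common.

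**Figure D1:**
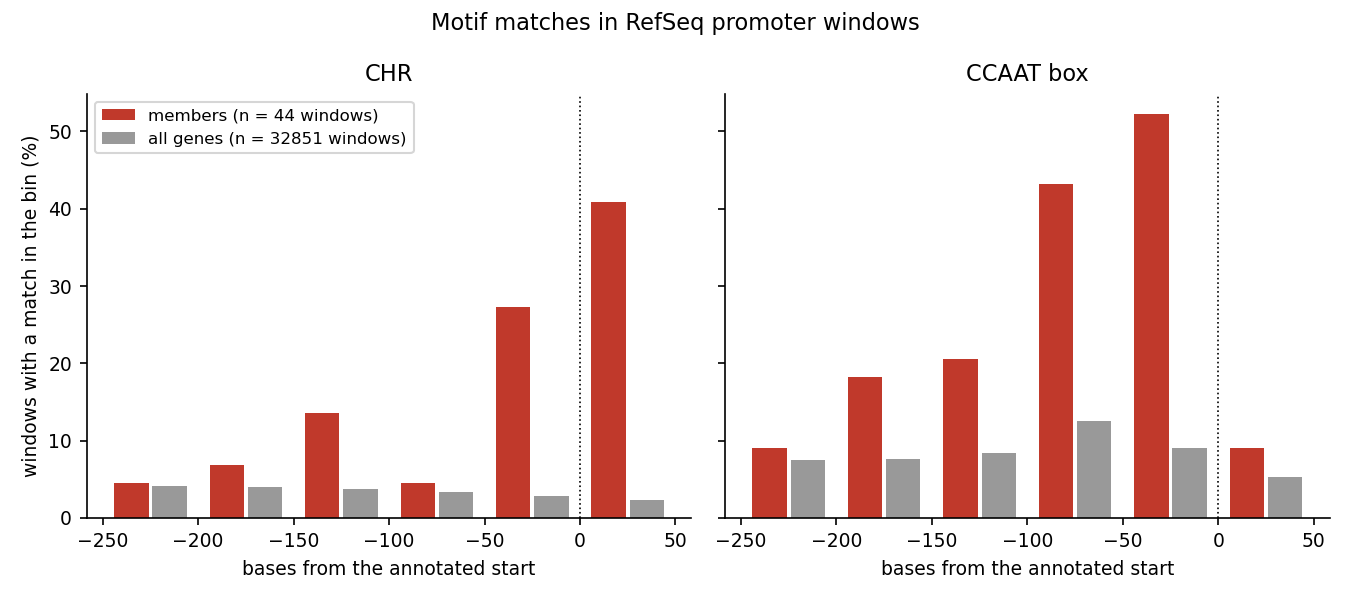
Share of RefSeq promoter windows (y axis, percent) in which a CHR match (left) or a CCAAT match (right) begins in each bin of 50 bases along the distance from the annotated start (x axis), for 44 windows of members (red) and 32851 windows of all genes (grey). CHR matches of members concentrate around the start, with 40.9% of windows in the bin after it, and CCAAT matches lie mostly in the 2 bins before it.

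Some features of the arrays moved with the groups or with single arrays. Values are RMA log2 values, on which a step of 1 is a doubling of signal. Xist, the RNA of the inactive X chromosome, was at 5.26 and 5.45 on the KO arrays and 13.28 and 13.19 on the WT arrays. Eif2s3y, a Y-linked gene, was at 9.59 and 9.57 on the KO arrays against 3.05 and 2.86. The groups thus differ in sex-linked RNA as well as in the labelled genotype, and the 2 cannot be told apart in any result. The labelled cell type was checked by keratins Krt5 and Krt14, at 13.47 to 13.76 on all arrays, Sox9, at 9.94 to 10.38, and the bulge marker Cd34, at 6.20 (WT 2) to 8.32 (WT 1). Of 13 stem cell and basal markers, 7 were higher in KO cells. All 10 dermal fibroblast markers were highest on WT 1, with a median of 11.72 there. That median was 8.54 on WT 2, 9.17 on KO 2 and 10.49 on KO 1. The collagen gene Col1a2 ran from 11.34 (WT 2) to 13.89 (WT 1). Of 6 suprabasal keratinocyte markers, 5 were higher in KO cells, with medians of 11.06 and 11.24 on the KO arrays and 10.52 and 10.46 on the WT arrays. Hair matrix and sheath markers had medians of 8.41 to 8.66, melanocyte markers of 7.34 to 7.93, and endothelial and immune markers of 4.77 to 4.92. The part of these cell types in the differences below was not tested.

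Most members had slightly higher values in KO cells, and none passed the test. The difference (KO mean minus WT mean of log2 values) was above 0 for 43 of 49 members (87.8%), against 53.2% of all genes and 56.9% of genes at or above the median level, and its median was 0.11, a ratio of 1.08, against 0.01 for all genes. By limma with Benjamini-Hochberg adjustment over all genes, 0 of 49 members had an adjusted p under 0.05 (all genes: 0.0110%), and the smallest adjusted p of a member was 1. At an unadjusted p under 0.05, 3 members were higher in KO cells and 0 lower. That share can be read against 1.88% of all genes in either direction and 1.15% in the higher direction. The members lay between -0.41 (Pttg1) and 0.24 (Ccnb2), and the middle of them between 0.05 and 0.17 (lower and upper quartile). In RNA from a sorted population, more dividing cells and more mitotic RNA per dividing cell cannot be told apart.

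**Figure D2:**
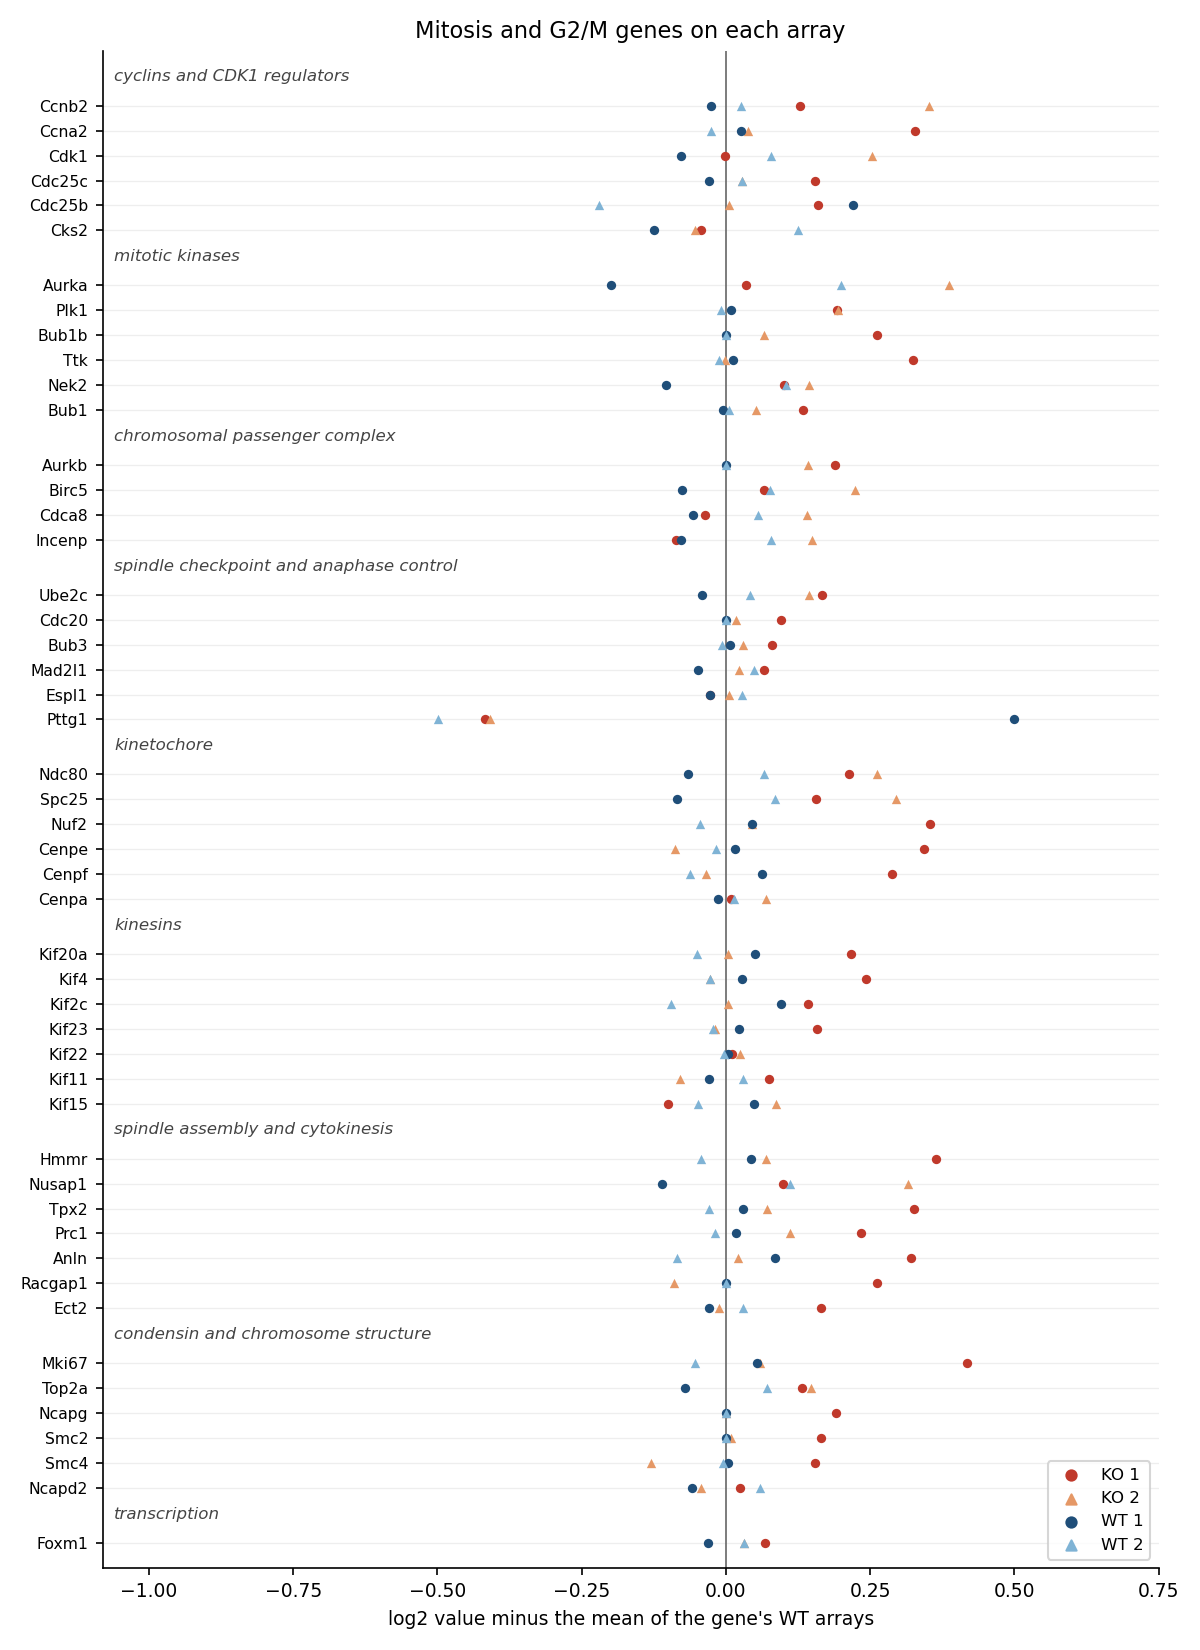
Log2 value of each of the 49 members on each array minus the mean of that gene's WT arrays (x axis), with genes grouped by role (y axis). Circles are number 1 and triangles number 2, KO in red and orange and WT in dark and light blue, and equal values hide each other. KO 1 is the rightmost point for 29 members, and Pttg1 stands apart through WT 1.

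The spread between arrays was of the same size as the difference. The median absolute distance between KO 1 and KO 2 was 0.16 over the members, larger than the 0.06 between WT 1 and WT 2 and than the median absolute difference between the groups, 0.11. Over genes at or above the median level, these distances were 0.15 between the KO arrays and 0.12 between the WT arrays. The members' KO distance was thus close to that of such genes, and their WT distance was smaller. Both KO arrays lay above both WT arrays for 18 of 49 members (36.7%), against 8.20% of all genes and 10.7% of genes at or above the median level. No member had both KO arrays below both WT arrays (all genes: 5.70%). For 10 members the difference was larger than the range of either group, all with higher KO values (all genes: 5.33% in that direction). These were Ccnb2, Plk1, Bub1, Aurkb, Ube2c, Bub3, Ndc80, Spc25, Kif22 and Prc1. A small difference can meet this criterion where the arrays of a group are nearly equal, as for Kif22 (0.02, SE 0.04) and Bub3 (0.06, SE 0.04).

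KO 1 carried much of the shift. It was the highest of the 4 arrays for 29 members (59.2%), against 25.3% of all genes and 37.8% of genes at or above the median level, while KO 2 was highest for 15, WT 2 for 3 and WT 1 for 2. KO 1 exceeded WT 1 by a median of 0.18 and KO 2 exceeded WT 2 by a median of 0.07, where all genes had medians of 0.00. KO 1 was above WT 1 for 44 members (all genes: 48.8%) and KO 2 above WT 2 for 36 (all genes: 45.8%), with equal values for 4. Of the members, 32 were higher in KO cells within both numbers (65.3%), against 24.0% of all genes and 30.4% of those at or above the median level, and 0 were lower within both (all genes: 16.8%). Without KO 1 the median was 0.03 and 37 members were above 0, whereas without KO 2 it was 0.15 with 42 above 0. Without WT 1, the array of highest fibroblast markers, the median was 0.09 with 42 above 0. The fibroblast markers stayed unequal in that setting, with medians of 10.49 on KO 1 and 9.17 on KO 2 against 8.54 on WT 2. It therefore does not separate fibroblast content from the difference, and the part of fibroblasts was not tested. The members share these arrays and are not independent of one another.

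**Figure D3:**
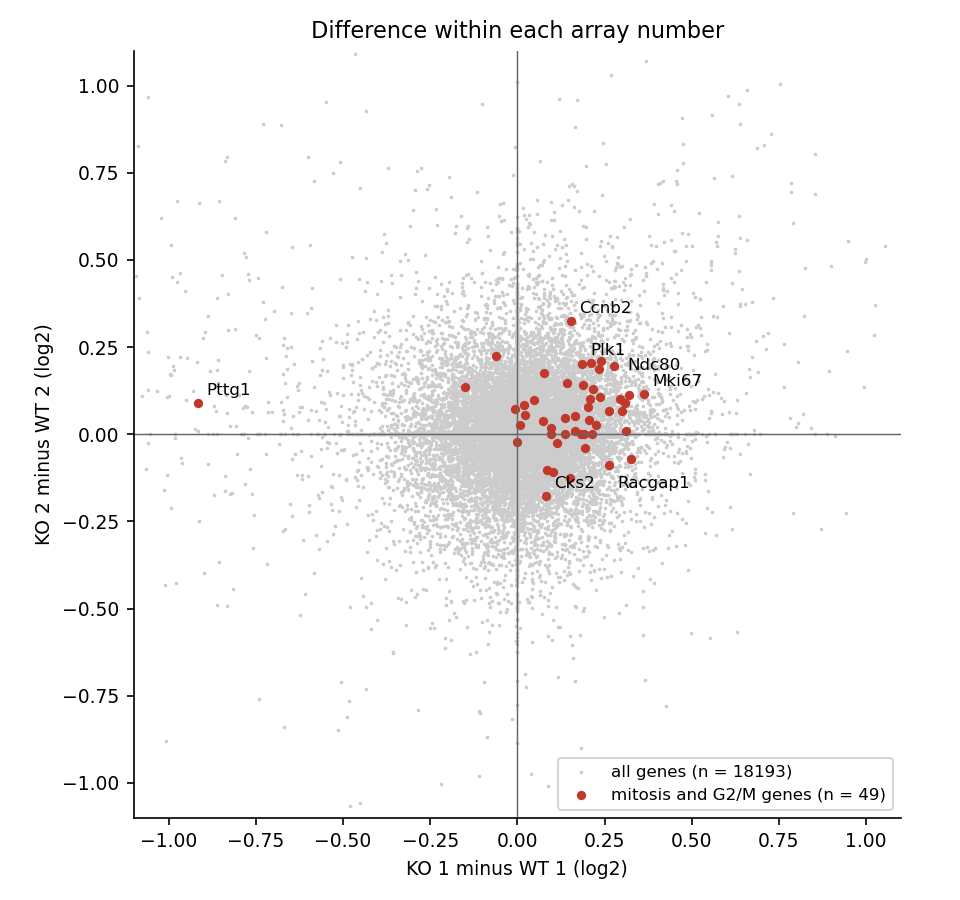
Difference KO 1 minus WT 1 (x axis) and KO 2 minus WT 2 (y axis) on the log2 scale, for all 18193 genes (grey) and the 49 members (red). 96 genes lie outside the axes. The members sit mostly in the upper right corner, with 32 above 0 on both axes, and Pttg1 lies far to the left.

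Among cyclins and regulators of CDK1, 5 of 6 measured members had higher KO values and 3 did so within both numbers, with a median of 0.11. Ccnb2 encodes cyclin B2, a partner of CDK1 in mitosis. Its log2 values were 10.67 on KO 1, 10.89 on KO 2, 10.52 on WT 1 and 10.57 on WT 2. Both KO arrays lay above both WT arrays, with a difference of 0.24 (SE 0.10, 95% interval -0.07 to 0.55, limma unadjusted p = 0.0943). Ccna2, cyclin A2 of the S and G2 phases, was at 10.83 on KO 1, 10.54 on KO 2, 10.53 on WT 1 and 10.47 on WT 2. Both KO arrays lay above both WT arrays, KO 2 only just, and the difference was 0.18 (SE 0.12). In the second probe set of Ccna2 it was KO 2 that was highest, at 9.98, with 9.78 on KO 1 and 9.71 on both WT arrays. That probe set differed by 0.17 (SE 0.09). Cdc25c, a phosphatase that activates CDK1, was at 8.40 on KO 1 and at 8.27 on both number 2 arrays, with WT 1 at 8.22. Cks2, a small subunit of CDK complexes, was the member of this role with a negative difference (-0.05, SE 0.11), with the KO arrays at 11.90 and 11.89 between WT 1 at 11.82 and WT 2 at 12.07. Cdk1 and the phosphatase Cdc25b differed by 0.13 and 0.08, with overlapping groups.

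All 6 mitotic kinases had higher KO values within both numbers, with a median of 0.16. Plk1, polo-like kinase 1, which acts from mitotic entry to cytokinesis, had the smallest unadjusted p of the list. Its values were 8.97 and 8.98 on the KO arrays and 8.79 and 8.77 on the WT arrays. The groups did not overlap, and the difference was 0.19 (SE 0.04, 95% interval 0.07 to 0.31, limma unadjusted p = 0.0143, adjusted p = 1). Bub1b, the checkpoint protein BUBR1, was at 9.71 on KO 1, 9.51 on KO 2 and 9.45 on both WT arrays, a difference of 0.16 (SE 0.09). Bub1, a checkpoint kinase at kinetochores, was at 9.82 and 9.74 on the KO arrays and 9.68 and 9.69 on the WT arrays, a difference of 0.09 (SE 0.05). The centrosomal Aurora kinase Aurka differed by 0.21, but its 2 number 2 arrays (9.22 and 9.03) lay above the number 1 array of the same genotype (8.87 and 8.63). Ttk and Nek2 differed by 0.16 and 0.12, and for Ttk the number 2 arrays were 0.01 apart.

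The chromosomal passenger complex corrects attachments at the inner centromere and later acts at the cleavage site. Its 4 members had higher KO values, 3 of them within both numbers, with a median of 0.10. Aurkb, its Aurora B kinase, was at 9.36 and 9.31 on the KO arrays and at 9.17 on both WT arrays. The groups did not overlap, with a difference of 0.17 (SE 0.04, 95% interval 0.03 to 0.30, limma unadjusted p = 0.0288, adjusted p = 1). Birc5, the survivin subunit, was at 10.67 and 10.83 on the KO arrays and 10.53 and 10.68 on the WT arrays. Its KO values were higher by 0.14 and 0.15 within the numbers, but KO 1 lay below WT 2. Cdca8, the borealin subunit, differed by 0.05 (SE 0.09), with values of 10.55, 10.72, 10.53 and 10.64 on KO 1, KO 2, WT 1 and WT 2. The scaffold Incenp differed by 0.03, with opposite signs within the 2 numbers.

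Genes of the spindle checkpoint and of anaphase control were higher in KO cells for 4 of 6 members, with a median of 0.05. Ube2c encodes the ubiquitin-conjugating enzyme that works with the anaphase-promoting complex. Its values were 11.63 and 11.61 on the KO arrays and 11.42 and 11.50 on the WT arrays, without overlap and with a difference of 0.16 (SE 0.05, limma unadjusted p = 0.0551). Cdc20, which activates that complex, was at 11.80 on KO 1, 11.73 on KO 2 and 11.71 on both WT arrays. Bub3, the partner of BUB1, was at 11.51 and 11.46 on the KO arrays and 11.44 and 11.43 on the WT arrays. The differences of these 2 genes were 0.06 each, and smaller than that between KO 1 and KO 2 for Cdc20. Mad2l1, the checkpoint protein MAD2, differed by 0.04, with KO 2 below WT 2.

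Pttg1 and Espl1 act at one step, securin (Pttg1) holding back separase (Espl1) until anaphase. Pttg1 had the largest absolute difference of the list, -0.41 (SE 0.40, limma unadjusted p = 0.38), and in this probe set a single array stood apart. It was at 11.54 on WT 1, against 10.62 on KO 1, 10.63 on KO 2 and 10.54 on WT 2. Without WT 1 the difference was 0.09. Both other probe sets of Pttg1 were also highest on WT 1. One was at 9.41 there and at 8.61 to 8.63 on the other 3 arrays. The other was at 6.87 and 7.01 on the KO arrays and 7.45 and 7.18 on the WT arrays, so that both KO arrays lay below both WT arrays. It differed by -0.37 (SE 0.13), by -0.57 within number 1 and by -0.17 within number 2. Espl1 differed by -0.01, with equal values (8.93) on KO 1 and WT 1 and with 8.97 on KO 2 and 8.99 on WT 2.

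All 6 kinetochore members had higher KO values, 5 of them within both numbers, with a median of 0.16. Ndc80, Nuf2 and Spc25 are subunits of the NDC80 complex, which binds spindle microtubules. Ndc80 was at 8.37 and 8.42 on the KO arrays and 8.09 and 8.22 on the WT arrays. Neither KO array fell within the WT range, and the difference was 0.24 (SE 0.07, 95% interval 0.02 to 0.45, limma unadjusted p = 0.0385, adjusted p = 1). Spc25 was at 9.97 and 10.11 on the KO arrays and 9.73 and 9.90 on the WT arrays, again without overlap, with a difference of 0.22 (SE 0.10). Nuf2 was high on KO 1 alone, at 9.27, with 8.96 on both KO 2 and WT 1 and 8.87 on WT 2. The centromere histone Cenpa and the large kinetochore proteins Cenpe and Cenpf differed by 0.04, 0.13 and 0.13. For Cenpe the number 2 arrays went the other way (-0.07).

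Of the 7 kinesins, which move along or take apart microtubules, 5 had higher KO values, with a median of 0.07 and a highest difference of 0.11. Kif20a, a kinesin of the central spindle, was at 9.40 on KO 1, 9.19 on KO 2, 9.24 on WT 1 and 9.13 on WT 2. Kif4, a chromosome-bound kinesin encoded on the X chromosome, was at 9.08 on KO 1, 8.87 on WT 1 and 8.81 on both number 2 arrays. In Kif23, the motor of the centralspindlin complex, KO 1 was at 9.96 and the other arrays at 9.78 to 9.82. KO 1 was the highest array for these 3 genes, and KO 2 lay within or at the edge of the WT range. Kif11, the kinesin that pushes spindle poles apart, differed by -0.003 (SE 0.08), at 9.27, 9.12, 9.17 and 9.23 on KO 1, KO 2, WT 1 and WT 2. Kif15, which shares that role, differed by -0.01 and had the dimmest probe set of the list, at 5.42 to 5.61, the one member below the median level of all genes. Kif2c and Kif22 differed by 0.07 and 0.02.

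Spindle assembly and cytokinesis factors had higher KO values in all 7 members, 5 of them within both numbers, with a median of 0.17. Prc1, which bundles the microtubules of the central spindle, was at 9.90 and 9.78 on the KO arrays and 9.68 and 9.65 on the WT arrays. The groups did not overlap, and the difference was 0.17 (SE 0.06, limma unadjusted p = 0.0726). Tpx2, an activator of Aurora A on the spindle, was at 9.83 on KO 1, 9.58 on KO 2, 9.54 on WT 1 and 9.48 on WT 2, a difference of 0.20 (SE 0.11). Hmmr, a microtubule-associated protein of the spindle poles, was at 9.46, 9.17, 9.14 and 9.05 on the same arrays, a difference of 0.22 (SE 0.13). In both, KO 1 was well above the others and KO 2 only just above WT 1. Nusap1, a spindle protein that stabilises microtubules, differed by 0.21 within number 1 and 0.20 within number 2, although KO 1 (10.36) and WT 2 (10.37) were nearly equal. Anln, the anillin scaffold of the contractile ring, differed by 0.17. The cytokinesis regulators Ect2 and Racgap1 differed by 0.08 and 0.09, and in both KO 2 was below WT 2.

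Condensin subunits and chromosome proteins had higher KO values in 5 of 6 members, with a median of 0.09. Mki67, the proliferation antigen Ki-67 that coats mitotic chromosomes, was at 12.15 on KO 1, 11.79 on KO 2 and WT 1 each, and 11.68 on WT 2. Only KO 1 stood well above the WT arrays, and the difference was 0.24 (SE 0.16). Top2a, the topoisomerase that untangles sister chromatids, was at 11.77 and 11.79 on the KO arrays and 11.57 and 11.71 on the WT arrays, a difference of 0.14 (SE 0.07) without overlap. Smc2, a core subunit of condensin, was at 11.07 on KO 1, 10.92 on KO 2 and 10.91 on both WT arrays. Its partners Smc4 and Ncapg differed by 0.01 and 0.09, and the condensin I subunit Ncapd2 by -0.01 (9.50, 9.43, 9.42 and 9.53 on KO 1, KO 2, WT 1 and WT 2). Foxm1, the transcription factor of this programme, was at 7.91 on KO 1, 7.88 on both number 2 arrays and 7.81 on WT 1, a difference of 0.05 (SE 0.05).

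Other probe sets of the same genes gave a smaller shift in the same direction. The members were measured by 115 probe sets in all, 15 members by 1 and 34 by several. Of the 66 probe sets not chosen, 51 were higher in KO cells, with a median of 0.08. Their median was 0.11 within number 1 and 0.03 within number 2. Brightness mattered to this count: 39 of 46 at or above the median level were higher (median 0.09), and 12 of 20 dimmer ones (median 0.02). Over all 34945 probe sets that name 1 gene, 52.0% were higher. All probe sets had the same sign in 22 of the 34 members with several. The counts 51, 12 and 22 include a dim probe set of Ttk at 5.20 on all 4 arrays. It did not differ between the groups but was counted as higher.

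Disagreement was largest for Kif11, Kif23 and Tpx2. A second probe set of Kif11 differed by 0.56, at 7.66 and 8.32 on the KO arrays and 6.70 and 8.17 on the WT arrays. It was low on WT 1 above all, which the brightest probe set of Kif11 was not. The third, at 8.51 to 8.64, differed by 0.06. For Kif23 a dim probe set (3.91 to 4.87) differed by 0.46, against 0.07 for the brightest and 0.07 for the third. The 3 other probe sets of Tpx2 differed by 0.30, 0.11 and -0.15, the last 2 of them dim. Plk1, Ndc80, Ccnb2, Ube2c and Mki67 had 1 probe set each, so their differences have no second measurement. The less bright probe set of Aurkb gave 0.13, from 8.99 on KO 1, 8.65 on KO 2 and 8.69 on both WT arrays, so that only KO 1 was above the WT arrays. That of Prc1 also differed by 0.13, and of the 2 others of Bub1b one differed by 0.21 and a dim one by 0.19. Other probe sets went the other way for Bub3 and Spc25. So did a probe set each of Nek2 (-0.08), Foxm1 (-0.05), Racgap1 (-0.04), Nusap1, Kif2c and Hmmr (-0.01 each). Those of Cdc25c and Ncapd2 differed by -0.0007 and 0.01, against 0.09 and -0.01 for the brightest. Apart from these, the probe sets of Nek2, Foxm1, Racgap1, Kif2c and Hmmr had the sign of the brightest. Of the 4 others of Bub3, 3 were negative (-0.06, -0.03 and -0.04) and 1 was at 0.01. The first of these, a dim one, had both KO arrays (5.08 each) below both WT arrays (5.14 each). The second probe set of Spc25, also dim, differed by -0.04, with WT 1 at 6.17 and the other 3 arrays at 6.09. For Kif22 the others differed by 0.21 and 0.10, and for Bub1 by 0.42, with KO 2 (6.67) below WT 2 (6.85). Exactly equal values on at least 2 arrays occurred in 11 members (22.4%), against 43.0% of all genes and 27.7% of those at or above the median level, so an SD of 0 in a group, as in Aurkb, Bub1b and Smc2, reflects the deposited values and not a measured absence of spread.

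**Figure D4:**
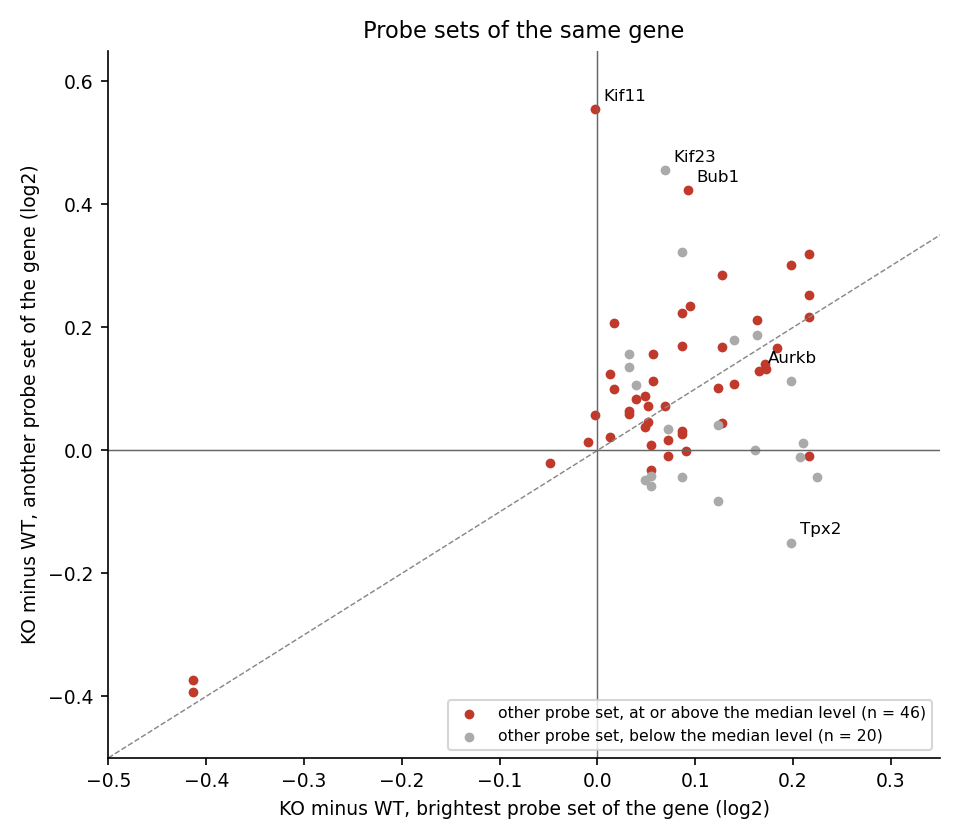
KO minus WT difference on the log2 scale of the brightest probe set of a member (x axis) and of each of its other probe sets (y axis), 46 at or above the median level (red) and 20 below it (grey). The dashed line marks equal differences. Most points lie above 0 on both axes, and the probe sets of Pttg1 agree at the lower left.

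Mitosis genes outside the list were shifted less. Of 120 measured genes of the same roles, 86 were higher in KO cells (71.7%) and 48 within both numbers, with a median of 0.04. That median was 0.08 within number 1 and 0.00 within number 2. No gene of the 120 passed the test, and at a limma unadjusted p under 0.05 there was 1, with a lower value. Of all genes, 1.88% had such a p in either direction. It was the kinetochore protein gene Zwint (-0.26, SE 0.07, limma unadjusted p = 0.0315), at 9.50 and 9.36 on the KO arrays and 9.68 and 9.70 on the WT arrays. The genes of smallest p with higher KO values were the kinase Nek9 (0.25, SE 0.08), the spindle-kinetochore gene Ska1 (0.26, SE 0.10), the cohesin protector Sgo1 (0.13, SE 0.05) and the abscission factor Cep55 (0.26, SE 0.11). In all 4 both KO arrays were above both WT arrays, which follows largely from the choice by p. Over the 120 genes this was so for 20 (16.7%), against 8.20% of all genes and 10.7% of genes at or above the median level. With lower KO values these were Zwint, Cks1b (-0.11, SE 0.05), the anaphase-promoting complex subunit Cdc26 (-0.15, SE 0.08) and cyclin A1, Ccna1 (-0.15, SE 0.09), which was dim. A CHR match within 50 bases of the start was present in 26 of the 100 of these genes that have a window (26.0%).

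Genes of DNA replication, the step before, did not share the direction of the mean difference. Of 38 S phase genes, 15 were higher in KO cells (39.5%, all genes: 53.2%) and the median was -0.02, at 0.02 within number 1 and -0.04 within number 2. KO 1 was above WT 1 for 23 of the 38 (all genes: 48.8%) and KO 2 above WT 2 for 11 (all genes: 45.8%). Among the 9097 genes at or above the median level, KO 1 was above WT 1 for 5055 and KO 2 above WT 2 for 4601. The medians of those genes were 0.02 within number 1 and 0.003 within number 2. The S phase genes were thus near this background within number 1 and lower within number 2. The array with the highest value was WT 2 for 22 of the 38. WT 2 was highest for 3601 of all 18193 genes and for 1498 of the 9097 at or above the median level. For 29 of the 49 members the highest array was KO 1, against 25.3% of all genes and 37.8% of those at or above the median level. A CHR match near the start was present in 2 of 31 of them (6.45%). The difference between these lists was not tested.

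**Figure D5:**
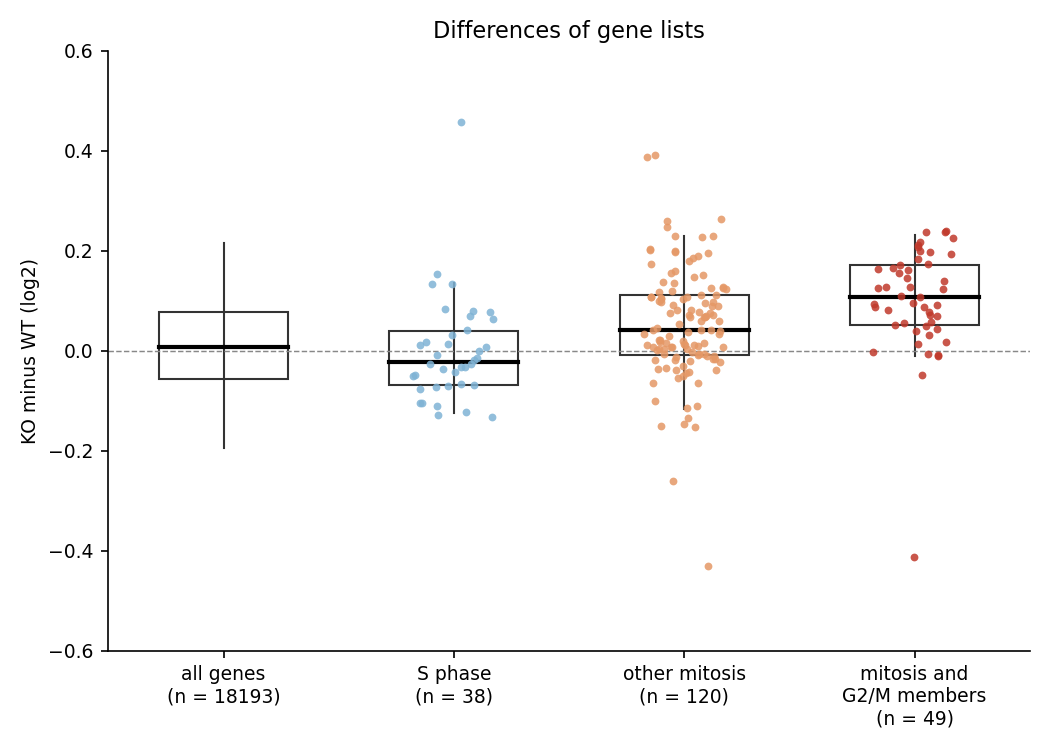
KO minus WT difference on the log2 scale (y axis) for all genes and 3 lists (x axis), each point a gene of a list. Boxes span the quartiles with the median as a bar, and lines reach the 5th and 95th percentiles. The members' median is 0.11, that of other mitosis genes 0.04, of S phase genes -0.02 and of all genes 0.01.

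Differences were also set out by the presence of a CHR match within 50 bases of the start. Of the 28 members with such a match, 25 were higher in KO cells (89.3%), with a median of 0.12, and a median of 0.19 within number 1 and 0.06 within number 2. Of the 13 members with a window and no such match, 10 were higher (76.9%), with a median of 0.09, and 0.14 and 0.09 within the numbers. Outside the list, 54.2% of 563 genes with such a match were higher in KO cells (median 0.01), and 53.3% of 13848 genes without (median 0.01). No test was made of these values.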

How the data were processed

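The deposited table holds log2 expression values for 45101 probe sets on 4 arrays, which the authors obtained by RMA. This tool is named, without a version, in the submitters' processing notes. RMA in general corrects background, sets the arrays to one distribution and summarises each probe set. The table carries no detection calls, and a small difference of a dim probe set is compressed by background. Probe sets were named through GEO's platform annotation, with symbols updated by gene identifier from the GRCm38.p6 RefSeq table. 34945 probe sets had 1 symbol, 932 several and 9160 none here, and 64 were controls. Per gene the probe set of highest mean was kept.

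KO was compared with WT with a linear model per gene and moderated variances (limma 3.58.1, R 4.3.3). No covariate entered, tests were two-sided, and p-values were adjusted over all 18193 genes by Benjamini and Hochberg, with a threshold of 0.05. The SE and the 95% interval come from that fit. Lists were described by counts and medians beside all genes. The fit was tested on simulated data.

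The members, the lists of other mitosis and S phase genes and the markers were chosen with earlier results of these data known. Genes given with the value of each array are, per role, the 3 of smallest p, and those with an unadjusted p under 0.05, a negative difference, the 3 largest absolute differences or the 3 largest disagreements between probe sets. Of the other mitosis genes, the 4 of smallest p in each direction are named. Motifs were searched as exact letters on both strands of RefSeq promoter windows. The number of arrays limits the precision.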

Additional observations from a re-analysis of the deposited data

How the results depend on the processing

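The members' median stayed between 0.10 and 0.12 and 41 to 45 members stayed above 0 with quantile normalization again, median centring, genes at or above the median level, the mean of probe sets, no _x_at probe sets, a replicate block and trended robust eBayes. Taken singly, 94 of 115 probe sets were above 0, counting among them the probe set of Ttk with equal values on all arrays. Leaving out 1 array gave medians from 0.031 (without KO 1) to 0.15 (without KO 2) and 37 to 45 members above 0. The median of other mitosis genes then ran from 0.01 to 0.07. No member passed the adjusted threshold under any setting, nor at 0.10. The smallest adjusted p of a member was 0.38, without KO 2, where the lone KO array is assumed to vary like the WT arrays.

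The number of members with an unadjusted p under 0.05, which was 3, became 0 with quantile normalization again, 1 with trended robust eBayes and 5 with the replicate block, and 2 to 15 when 1 array was left out, the last without KO 2, where 11.2% of all genes had such a p. With the block 4.83% of all genes had such a p. Genes called over the whole array, which were 2, became 1 among genes at or above the median level, 0 with the mean of probe sets, 0 with the replicate block and 0 without any 1 array. Like-numbered arrays deviated together (r = 0.56 across genes), but the labels do not say what a number shares, and only 2 pairs exist. The causes were not tested.

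Of 427 pairs of a named gene and an alternative, 21 changed sign. Kif11 was at 0.20 with the mean of probe sets and 0.0058 with median centring, and Kif15 at 0.0018 with quantile normalization again and 0.0020 with median centring. Bub3 was at -0.014 and Ncapd2 at 0.0020 with the mean of probe sets, and Cdc25c at -0.00073 without _x_at probe sets. When 1 array was left out, the difference ran from -0.17 to 0.076 for Cks2, from -0.036 to 0.14 for Cdca8, from -0.91 to 0.085 (without WT 1) for Pttg1 and from -0.038 to 0.017 for Espl1. It ran from -0.080 to 0.074 for Kif11, from -0.020 to 0.16 for Kif23, from -0.028 to 0.24 for Kif4, from -0.10 to 0.087 for Kif15 and from -0.069 to 0.050 for Ncapd2.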
